A study of Rattus norvegicus with 36 samples.

Results

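Star encodes the steroidogenic acute regulatory protein, and it was followed here across 12 groups of cultured rat granulosa cells. It is 1 of 14217 genes that the array names by a single symbol, and all probe sets that the platform annotation assigns to the symbol Star were taken: 2 of the 31042 that remained after 57 controls were set aside. They are 1368406_at, which had the higher mean over all arrays and is meant where "Star" stands alone, and 1387174_a_at. The suffix _a_at is Affymetrix's mark for a set whose probes match several transcripts of the same gene. The 2 sets were kept apart, since levels of different probe sets cannot be compared with each other.

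The Star protein moves cholesterol from the outer to the inner mitochondrial membrane. There the side-chain cleavage enzyme Cyp11a1, fed with electrons through ferredoxin (Fdx1), turns it into pregnenolone, the precursor of the steroid hormones. Star is switched on by hormones that act through cAMP and protein kinase A, and in the ovary it is best known for its rise as follicle cells become progesterone-producing luteal cells. FSH, the pituitary hormone that drives granulosa cell differentiation, raises cAMP through its receptor, whereas added cAMP enters the pathway after the receptor.

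Granulosa cells were released by needle puncture from ovaries of unprimed female Sprague-Dawley rats aged 21 to 27 days, plated for 24 h in 5% serum and then treated for 48 h without serum. In the first set of groups 3 ng/ml FSH was added together with 0, 1, 5 or 10 µM HPTE, a hydroxylated breakdown product of the pesticide methoxychlor that binds oestrogen receptors. In the second set 1 mM cAMP took the place of FSH, in a form the labels do not give, and in the third, called basal, HPTE was given at the same 4 doses with neither stimulus. Every group, the unexposed basal cells included, also received androstenedione as a substrate for oestradiol production, at 0.1 µM in the series description and 0.1 M in the sample descriptions. Each group holds 3 arrays, titled with the numbers 1 to 3; the labels do not say whether these are separate animals, cell pools or wells, so p-values measure the spread between these arrays, which may be partly technical.

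The 36 arrays had median intensities of 65.8 to 73.7, and arrays of the same group correlated at 0.95 to 0.994. The Gapdh 3′ over 5′ log2 ratio, a sign of RNA degradation or shortened cDNA, ran from 1.61 to 2.40 on numbers 1 and 2 and from 0.767 to 1.07 on number 3, with group means between 1.49 and 1.86. All 9 granulosa markers measured (Foxl2, Amh, Inha, Inhba, Cyp19a1, Hsd17b1, Nr5a2, Gja1 and Fst) averaged above the median probe set. Cyp19a1 did so only through stimulated groups, with means of 4.56 to 4.81 in the basal groups and 5.38 with FSH at 10 µM. Those means lay below that median, which was 6.11. Of the markers of other cells, 3 of 7 for theca, 6 of 8 for macrophages, 3 of 4 for endothelium, 2 of 5 for oocytes and 3 of 5 for surface epithelium averaged below it. Deviations from the group means were shared between arrays of the same number, with a median correlation of 0.510 over all pairs of arrays. The pair formed by number 2 of unexposed FSH cells and number 2 of unexposed cAMP cells went the other way, with a correlation of -0.124, the lowest of all. Over all probe sets, the difference of unexposed FSH minus unexposed cAMP on number 2 correlated at -0.651 with that on number 1 and -0.489 with that on number 3, while numbers 1 and 3 correlated at 0.451; at 1, 5 and 10 µM all 3 such correlations were between 0.285 and 0.827. These 2 arrays thus go against their labels, as they would if exchanged, and the files do not settle whether they were. Their labels were kept, and every value of unexposed FSH or cAMP cells is open to this; the Star results that use them are also given without both arrays. In bulk RNA, a smaller share of a cell type and less RNA per cell cannot be told apart. Most granulosa markers were themselves higher with the stimuli, so sums of this list do not measure the share of granulosa cells. Gja1 and Inhba, at 13.77 and 12.73 in unexposed basal cells, weigh most in these sums of linear intensity.

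Star spanned a wide range of levels across the 12 groups. It was lowest in basal cells with 1 µM HPTE and highest in cells given cAMP with 10 µM HPTE, and the group means of log2 intensity were 21.3-fold apart on 1368406_at and 42.8-fold apart on 1387174_a_at. In basal cells the level stayed low up to 5 µM and was high at 10 µM, in cAMP cells it was high at every dose and highest at 10 µM, and in FSH cells its mean was lowest at 5 µM.

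On 1368406_at, the FSH arrays numbered 1 to 3 had log2 intensities of 12.15, 10.57 and 10.60 without HPTE, 11.96, 9.64 and 10.30 at 1 µM, 10.56, 9.55 and 8.92 at 5 µM, and 11.22, 10.79 and 10.51 at 10 µM. The cAMP arrays had 11.14, 10.85 and 9.42 without HPTE, 10.95, 10.33 and 9.18 at 1 µM, 11.42, 11.11 and 10.13 at 5 µM, and 12.60, 12.34 and 12 at 10 µM. The basal arrays had 8.59, 8.23 and 7.72 without HPTE, 8.42, 7.91 and 7.38 at 1 µM, 8.65, 8.71 and 8.12 at 5 µM, and 11.09, 10.55 and 10.37 at 10 µM. Every basal array at 10 µM was thus above every basal array at the lower doses, and every FSH array at 5 µM was below every unexposed FSH array.

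On 1387174_a_at, the FSH arrays had log2 intensities of 10.43, 9.42 and 9.77 without HPTE, 10.03, 7.44 and 9.54 at 1 µM, 8.64, 8.19 and 8.62 at 5 µM, and 9.81, 9.81 and 10.96 at 10 µM. The cAMP arrays had 10.01, 8.88 and 9.23 without HPTE, 9.84, 9.17 and 9.16 at 1 µM, 10.59, 10.33 and 10.53 at 5 µM, and 11.82, 11.66 and 12.33 at 10 µM. The basal arrays had 6.69, 6.35 and 6.60 without HPTE, 6.80, 6.23 and 6.53 at 1 µM, 7.26, 7.22 and 7.72 at 5 µM, and 10.19, 9.55 and 10.69 at 10 µM. Here the basal arrays at 5 µM already stood clear of the unexposed ones, as did the cAMP arrays at 5 µM, and 1 FSH array at 1 µM (number 2, 7.44) lay far below the other two.

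**Figure D1:**
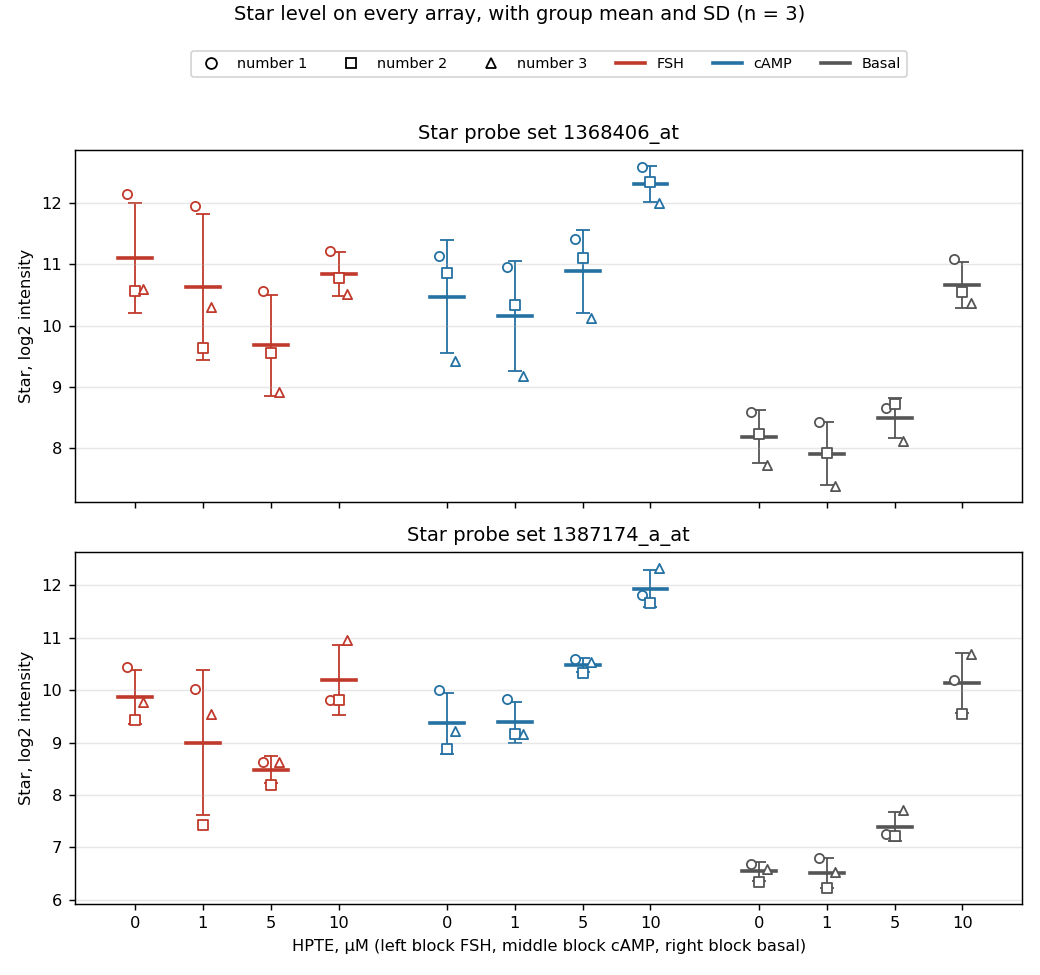
Star log2 intensity on each of the 36 arrays (points, shape by title number), with the group mean (line) and SD (bar, n = 3), by HPTE dose for FSH, cAMP and basal cells from left to right; top 1368406_at, bottom 1387174_a_at. The basal arrays at 10 µM sit at 10.37 to 11.09 on 1368406_at, level with the stimulated groups, while the other basal arrays stay between 7.38 and 8.71.

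The spread within groups was large next to many of these differences. On 1368406_at the SD of the 3 arrays ran from 0.30 (cAMP at 10 µM) to 1.19 (FSH at 1 µM), with a pooled SD of 0.71, and on 1387174_a_at from 0.13 (cAMP at 5 µM) to 1.38 (FSH at 1 µM), with a pooled SD of 0.56. Part of it followed the title numbers. On 1368406_at, number 1 was the highest of the 3 arrays in 11 of 12 groups and number 3 the lowest in 10. On 1387174_a_at, number 2 was the lowest in 10 groups and number 1 the highest in 8. Number 3 is also where the Gapdh ratio was low, and its part in the Star values was not tested.

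From low to high, the group means on 1368406_at ran through basal cells at 1, 0 and 5 µM (7.91, 8.18 and 8.49), FSH at 5 µM (9.68), cAMP at 1 and 0 µM (10.16 and 10.47), FSH at 1 µM (10.63), basal at 10 µM (10.67), FSH at 10 µM (10.84), cAMP at 5 µM (10.89), FSH without HPTE (11.11) and cAMP at 10 µM (12.32). Of the 11 steps between neighbours in this order, 10 had overlapping arrays; the exception was the step between FSH at 5 µM and basal at 5 µM. On 1387174_a_at the means ran from 6.52 (basal, 1 µM) to 11.94 (cAMP, 10 µM), and 8 of 11 neighbouring pairs overlapped. The clear steps there lay between basal at 5 µM (7.40) and basal at 0 µM (6.54), between FSH at 5 µM (8.49) and basal at 5 µM, and between cAMP at 10 µM and cAMP at 5 µM (10.48). The 2 probe sets followed each other, with a correlation of 0.977 over the 12 group means and 0.901 over the 36 arrays, which share their libraries. In 18 of the 21 comparisons of 2 groups their differences had the same sign; 6 passed the test on 1368406_at and 10 on 1387174_a_at, and those 6 passed on both.

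The effect of HPTE was first tested in basal cells, which received neither stimulus. At 10 µM HPTE Star rose 5.60-fold over 0 µM, with means of 10.67 ± 0.37 against 8.18 ± 0.44 (SD, n = 3 each) and a log2 difference of 2.49 ± 0.54 (SE, limma with Benjamini-Hochberg adjustment over all probe sets, adjusted p = 0.0159). 1387174_a_at rose 12.1-fold, with 10.14 ± 0.57 against 6.54 ± 0.18 (3.60 ± 0.43, adjusted p = 2.37e-05), and ranked 8 by p-value among the 31042 probe sets, of which 1.02% passed in this comparison and 0.416% were higher. Arrays of the same number differed by 2.49, 2.32 and 2.65 on 1368406_at and by 3.50, 3.20 and 4.10 on 1387174_a_at. The size varied little between numbers on 1368406_at and more on 1387174_a_at. 1368406_at no longer passed with number 1 of the 10 µM arrays left out (2.28, adjusted p = 0.104), nor with number 2 (2.51, 0.0664) or 3 of the unexposed arrays left out (2.26, 0.108); 1387174_a_at passed whichever array was left out.

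At the lower doses no change of Star passed in basal cells. At 1 µM the log2 differences from 0 µM were -0.28 ± 0.54 and -0.03 ± 0.43 on the 2 probe sets, and no probe set of the array passed (0%). At 5 µM they were 0.31 ± 0.54 (95% interval -0.80 to 1.42) and 0.85 ± 0.43 (adjusted p = 1 for both), where 0.0129% of probe sets passed, although the arrays did not overlap on 1387174_a_at. The step to 10 µM, tested as an addition after the levels were known, was 2.74 ± 0.43 over 5 µM on 1387174_a_at (adjusted p = 0.0126, with 0.0934% of probe sets passing) and 2.17 ± 0.54 on 1368406_at (adjusted p = 0.214, and 0.00078 with the title number as a block, where 0.477% passed). The step on 1387174_a_at did not pass when number 1 or 2 of the 5 µM arrays or number 3 of the 10 µM arrays was left out.

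Of the markers of other cells, 1 passed in basal cells at 10 µM HPTE, the collagen gene Col1a1 of the theca list, which fell by 1.57 on the log2 scale. The summed intensity of 7 theca markers was 757 to 1613 at 10 µM, against 1505 to 2331 without HPTE, and that of 8 macrophage markers 731 to 2315 against 557 to 2059. The 9 granulosa markers summed to 23632 to 25007 at 10 µM, below the 25970 to 27696 without HPTE, and none of the 9 passed. The Gapdh ratio was 1.94, 1.95 and 0.89 at 10 µM and 2.31, 1.99 and 0.96 without HPTE. The part of these shifts in the Star result was not tested.

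In cells given cAMP, 10 µM HPTE added to a level that the stimulus had already raised. 1387174_a_at rose 5.92-fold over cAMP alone, with 11.94 ± 0.35 against 9.37 ± 0.58 (SD, n = 3 each; 2.57 ± 0.43 SE, adjusted p = 0.000734), where 1.69% of probe sets passed and 1.2% were higher. On 1368406_at the means were 12.32 ± 0.30 and 10.47 ± 0.92, a log2 difference of 1.85 ± 0.54 that did not pass (adjusted p = 0.0929); the arrays did not overlap, and with the title number as a block it passed (adjusted p = 0.000143, with 5.83% of probe sets passing). Without number 2 of both unexposed stimulated groups the differences were 2.32 (adjusted p = 0.00623) and 2.04 (0.0815).

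At 1 and 5 µM HPTE no change of Star passed in cAMP cells. At 1 µM the log2 differences were -0.31 ± 0.54 and 0.02 ± 0.43, with no probe set of the array passing (0%). At 5 µM they were 0.42 ± 0.54 and 1.11 ± 0.43 (adjusted p = 0.937 and 0.538), with 0.00322% of probe sets passing, and the 5 µM arrays lay above the unexposed ones on 1387174_a_at. The summed theca markers were 811 to 917 in cAMP cells at 10 µM, against 992 to 2096 without HPTE, Col1a1 fell by 1.93, and the granulosa markers summed to 39594 to 41739 against 42474 to 48097; their part in the rise of Star was not tested.

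In cells given FSH the pattern over dose was different: the mean of Star was lowest at 5 µM HPTE and not distinguishable from the unexposed level at 10 µM. At 5 µM the means were 9.68 ± 0.83 against 11.11 ± 0.91 on 1368406_at and 8.49 ± 0.25 against 9.88 ± 0.51 on 1387174_a_at (SD, n = 3 each), 2.69-fold and 2.62-fold lower, and the arrays did not overlap on either. Neither difference passed (-1.43 ± 0.54, adjusted p = 0.142, and -1.39 ± 0.43, adjusted p = 0.0523), where 6.54% of probe sets passed, 3.45% higher and 3.08% lower. With the title number as a block both passed (adjusted p = 0.0011 and 0.00359), where 14.3% of probe sets passed. Without number 2 of both unexposed stimulated groups the differences were -1.70 (adjusted p = 0.114) and -1.62 (0.0391), and leaving out number 2 of the unexposed FSH arrays alone also brought 1387174_a_at past the threshold (adjusted p = 0.0416). The 9 granulosa markers summed to 26531 to 38335 at 5 µM, below the 39911 to 52828 without HPTE, and 2 of them fell, the inhibin gene Inha (-1.46) and the nuclear receptor gene Nr5a2 (-1.98). Nr5a2 did not pass when number 1 (adjusted p = 0.0555) or 2 (0.157) of the 5 µM arrays or number 3 of the unexposed arrays (0.139) was left out. Of the theca list the steroid hydroxylase gene Cyp17a1 fell (-1.36), with list sums that overlapped, and the part of these shifts in the Star difference was not tested.

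At 10 µM HPTE with FSH, Star averaged 10.84 ± 0.36 on 1368406_at, against 11.11 ± 0.91 without HPTE, a log2 difference of -0.27 with a 95% interval of -1.38 to 0.85. On 1387174_a_at it averaged 10.20 ± 0.66 against 9.88 ± 0.51, a difference of 0.32 with an interval of -0.57 to 1.21, while 8.45% of probe sets passed in this comparison. Over the 5 µM arrays, the 10 µM arrays were higher on all 3 numbers on both probe sets, by 1.16 ± 0.54 and 1.71 ± 0.43; neither passed in this added comparison (adjusted p = 1 and 0.258), where 0.103% of probe sets did, and 1387174_a_at did with the block (0.0116, where 0.483% of probe sets passed). At 1 µM the differences from 0 µM were -0.47 ± 0.54 and -0.87 ± 0.43 (adjusted p = 1), with 0.00644% of probe sets passing. The 5 µM arrays overlapped the 1 µM arrays on both sets, and the added comparison of these doses did not pass (-0.95 ± 0.54 and -0.52 ± 0.43). On 1387174_a_at number 2 was higher at 5 than at 1 µM, by 0.76, and 1 of 6 fits with an array left out passed.

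**Figure D2:**
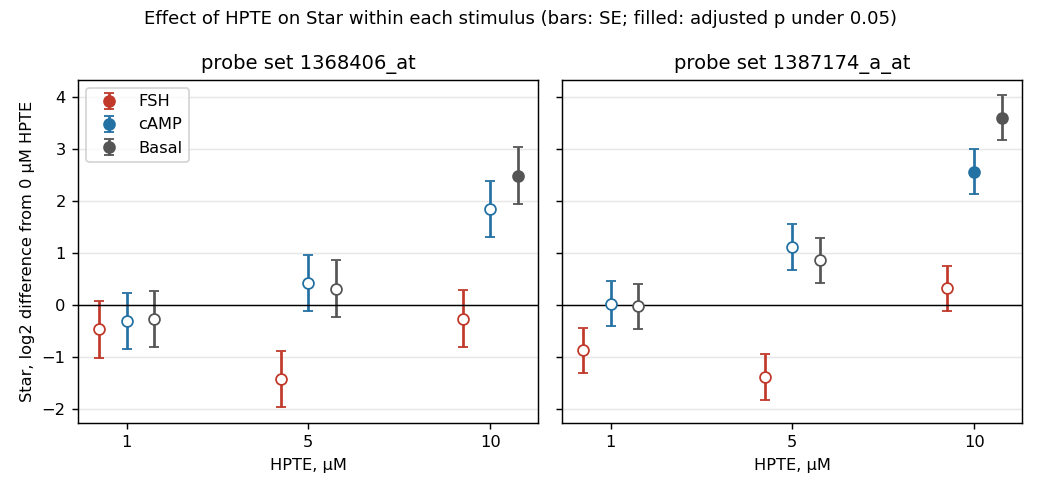
Difference of Star from 0 µM HPTE within FSH, cAMP and basal cells, in log2 units with the SE of the fit, by dose in µM; filled points had an adjusted p under 0.05. At 10 µM the basal and cAMP points lie between 1.85 and 3.60 and the FSH points at -0.27 and 0.32.

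Whether HPTE acted on Star differently with and without FSH was tested as an interaction, the difference of 2 dose effects. At 10 µM the effect in FSH cells was lower than in basal cells on 1387174_a_at, with an interaction of -3.28 ± 0.61 (adjusted p = 0.00255), where 2.17% of probe sets passed and 0.796% were lower, and it passed whichever array was left out. On 1368406_at the interaction was -2.75 ± 0.77 (adjusted p = 0.0549), -3.02 without number 2 of both unexposed stimulated groups (0.0369) or without that FSH array alone (0.0383), and it passed with the block (0.000109, where 6.77% of probe sets passed). Between cAMP and basal cells the interaction at 10 µM was -0.64 ± 0.77 (95% interval -2.21 to 0.93) and -1.03 ± 0.61, and neither passed, where 0.129% of probe sets did.

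Between FSH and cAMP cells the interaction at 10 µM was -2.11 ± 0.77 on 1368406_at and -2.25 ± 0.61 on 1387174_a_at (adjusted p = 0.228 and 0.054), where 1.88% of probe sets passed. Both passed with the block (0.00194 and 0.00268, where 5.95% of probe sets passed). On 1387174_a_at it also passed without number 1 of the unexposed cAMP arrays (-2.57, 0.0384), number 2 of the unexposed FSH arrays (-2.47, 0.0345) or number 3 of the FSH arrays at 10 µM (-2.63, 0.028). The interactions at 5 and 10 µM share their unexposed arrays.

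At 5 µM, tested as an addition, 1387174_a_at responded lower with FSH than with cAMP by an interaction of -2.50 ± 0.61 (adjusted p = 0.0254), where 2.06% of probe sets passed. It did not pass when 1 of 6 arrays was left out: number 1 of the unexposed FSH (0.0779) or of the 5 µM cAMP arrays (0.0526), number 2 of the unexposed cAMP (0.0605) or 5 µM FSH arrays (0.0778), or number 3 of the unexposed (0.0603) or 5 µM cAMP arrays (0.0622). On 1368406_at it was -1.84 ± 0.77 (adjusted p = 0.334, and 0.00638 with the block, where 6.41% passed). The interaction of FSH with basal cells at 5 µM was -2.24 ± 0.61 and -1.74 ± 0.77 on the 2 sets (adjusted p = 0.062 and 0.47; 0.00309 and 0.0116 with the block), where 1.53% of probe sets passed, or 5.32% with the block. Without number 2 of both unexposed stimulated groups the first of these passed (-2.47, adjusted p = 0.0342) and the second did not (-2.01, 0.323).

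The other way to read the design is the response to each stimulus at a fixed HPTE dose. Without HPTE, FSH raised Star 7.59-fold over basal cells (2.92 ± 0.54, adjusted p = 0.000453) and 1387174_a_at 10.1-fold (3.33 ± 0.43, adjusted p = 4.46e-06), where 8.06% of probe sets passed and 3.88% were higher. At 1 µM it still rose, 6.62-fold and 5.59-fold (2.73 ± 0.54 and 2.48 ± 0.43, adjusted p = 0.00278 and 0.000772), where 3.03% of probe sets passed and 1.39% were higher; 1368406_at did not pass with number 1 of the FSH arrays left out (2.06, 0.0651), and the difference on 1387174_a_at was 3.27 without number 2 of them. Granulosa markers were higher too: 7 of 9 passed without HPTE, where they summed to 39911 to 52828 with FSH, against 25970 to 27696 in basal cells, and 6 of 9 passed at 1 µM. With most of the list responding to FSH, this sum does not measure granulosa content. Their part in the Star response was not tested.

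At 5 µM HPTE the FSH arrays still lay above all basal arrays, but neither probe set passed (1.18 ± 0.54, 95% interval 0.071 to 2.30, and 1.09 ± 0.43; adjusted p = 1), in a comparison where 0.00322% of probe sets did. At 10 µM the groups overlapped, with 10.84 ± 0.36 against 10.67 ± 0.37 on 1368406_at and 10.20 ± 0.66 against 10.14 ± 0.57 on 1387174_a_at. The differences were 0.17 (95% interval -0.94 to 1.28) and 0.05 (-0.84 to 0.95), and no probe set of the array passed (0%). At this dose the basal mean was well above its unexposed value, while the change of the FSH mean from its own had not passed.

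Star was higher with cAMP than in basal cells at every dose of HPTE. It rose 4.88-fold over basal cells without HPTE (2.29 ± 0.54, adjusted p = 0.00612), and 1387174_a_at 7.09-fold (2.83 ± 0.43, adjusted p = 4.39e-05), where 7.18% of probe sets passed and 2.69% were higher. At 1 µM the differences were 2.25 and 2.87 (adjusted p = 0.00605 and 2.88e-05), where 8.71% of probe sets passed and 4.24% were higher, and at 5 µM 2.39 and 3.09 (adjusted p = 0.0036 and 1.1e-05), where 8.08% passed and 3.99% were higher. 1368406_at did not pass when number 1 of the cAMP arrays at 0 µM (1.95, 0.0537) or at 1 µM (1.85, 0.059) was left out, while 1387174_a_at passed at these 3 doses whichever array was left out.

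At 10 µM the cAMP arrays stood above all basal arrays on both sets. 1387174_a_at differed by 1.79 ± 0.43 (adjusted p = 0.00846), where 6.18% of probe sets passed, but not when number 2 of the basal (1.5, 0.0772) or number 3 of the cAMP arrays (1.60, 0.058) was left out. 1368406_at differed by 1.65 ± 0.54 (adjusted p = 0.0739, and 0.000212 with the block, where 12.8% passed). The FSH and cAMP responses at a dose share the basal arrays of that dose.

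Markers moved with the cAMP response as well. Of the 9 granulosa markers 6, 6, 7 and 5 were higher than in basal cells at 0, 1, 5 and 10 µM, and none was lower. Over all probe sets 2.69%, 4.24%, 3.99% and 2.73% were higher at these doses, and 4.49%, 4.47%, 4.09% and 3.45% lower. The 8 macrophage markers summed to 263 to 368 with cAMP, against 634 to 2140 in basal cells, at 1 µM, and to 278 to 462 against 753 to 2096 at 5 µM, with Lyz2, which encodes lysozyme, lower at both doses (-3.19 and -2.99). The 5 oocyte markers summed to 752 to 1133 with cAMP at 5 µM, against 277 to 542 in basal cells, with Zp2 higher by 1.17. At 10 µM Col1a1 (-1.38) and the keratin genes Krt8 (-0.86) and Krt18 (-1.07) of the surface epithelium list were lower. The part of these markers in the Star response was not tested.

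Leaving out number 2 of both unexposed stimulated groups kept each response to a stimulus without HPTE past the threshold. FSH over basal cells was then 3.19 and 3.56 on the 2 probe sets (adjusted p = 0.000712 and 1.04e-05), and cAMP over basal cells 2.10 and 3.07 (adjusted p = 0.0333 and 7.59e-05). The effects of HPTE were -0.74 and -1.10 with FSH at 1 µM, -0.53 and 0.094 with FSH at 10 µM, -0.12 and -0.23 with cAMP at 1 µM, and 0.61 and 0.87 with cAMP at 5 µM, and none of these passed. At 10 µM the interactions were -3.02 and -3.50 between FSH and basal cells (adjusted p = 0.0369 and 0.00167), -2.57 and -2.22 between FSH and cAMP cells (0.122 and 0.0743), and -0.45 and -1.28 between cAMP and basal cells. The interaction of FSH with cAMP cells at 5 µM was -2.30 and -2.48 (0.186 and 0.0409).

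**Figure D3:**
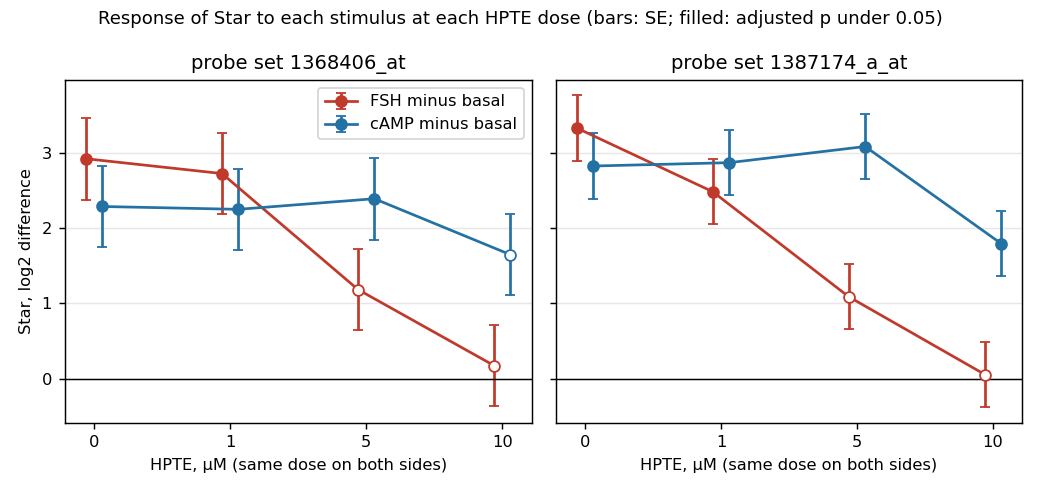
Response of Star to FSH and to cAMP over basal cells at the same HPTE dose, in log2 units with the SE of the fit; filled points had an adjusted p under 0.05. The FSH response is 0.17 and 0.05 at 10 µM, and the cAMP response is 1.65 and 1.79 there.

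Set directly against cAMP, FSH gave no Star difference that passed at the low doses. Without HPTE the log2 differences of FSH minus cAMP were 0.64 ± 0.54 and 0.51 ± 0.43 (adjusted p = 1), in a comparison where 0% of the array passed. With number 2 of both groups left out, 680 of the 31042 probe sets passed. The Star differences were then 1.10 and 0.48 (adjusted p = 0.542 and 0.796). At 1 µM they were 0.48 ± 0.54 and -0.39 ± 0.43, opposite in sign, and neither passed, where 0.409% of probe sets did.

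At 5 µM, 1387174_a_at was lower with FSH than with cAMP, with 8.49 ± 0.25 against 10.48 ± 0.13, 4.00-fold lower (-2.0 ± 0.43, adjusted p = 0.00338), where 5.59% of probe sets passed and 2.56% were lower. 1368406_at differed by -1.21 ± 0.54 (adjusted p = 0.284, and 0.00578 with the block, where 12.8% passed). At this dose 8 macrophage markers summed to 820 to 2010 in FSH cells, against 278 to 462 in cAMP cells, with the lysozyme gene Lyz2 higher by 3.09, and 5 oocyte markers summed to 266 to 554 against 752 to 1133, with Zp1, Zp2 and Zp3, genes of the egg coat, lower (log2 differences of -0.62, -1.26 and -2.03). The 9 granulosa markers summed to 26531 to 38335 with FSH, against 42553 to 49213 with cAMP, and Inha was lower (-1.18, adjusted p = 0.0392). Their part in the Star difference was not tested.

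At 10 µM, 1387174_a_at was 3.34-fold lower with FSH, 10.20 ± 0.66 against 11.94 ± 0.35 (-1.74 ± 0.43, adjusted p = 0.0132), where 4.76% of probe sets passed and 1.96% were lower. It did not pass when number 1 (-1.55, 0.0808) or 2 of the FSH arrays (-1.55, 0.0871) or number 3 of the cAMP arrays (-1.54, 0.0842) was left out. 1368406_at differed by -1.48 ± 0.54 (adjusted p = 0.15, and 0.000927 with the block, where 11.1% passed). At this dose the granulosa markers summed to 28021 to 30460 with FSH, against 39594 to 41739 with cAMP, and 3 of 9 were lower (Foxl2, Inha and Inhba). The macrophage markers summed to 858 to 2857 with FSH, against 374 to 774 with cAMP, with 0 of 8 passing, and Col1a1 was higher (1.39). Their part in the Star difference was not tested.

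The genes around Star were read from the same fits in 3 lists, 1 probe set a gene. The first holds genes of mitochondrial cholesterol import and side-chain cleavage, 14 of 17 of them measured: among them the outer-membrane protein Tspo, the voltage-dependent channels, the anchoring protein Akap1 that tethers protein kinase A at mitochondria, Cyp11a1 and Fdx1. Most of the list did not pass in any HPTE comparison. Over all probe sets, 4.51% were higher and 3.95% lower at 10 µM in FSH cells, 1.2% and 0.486% in cAMP cells, and 0.416% and 0.602% in basal cells. At 10 µM in basal cells 1 of 14 was higher and 0 lower, with a list median of 0.062 against 0.020 over all probe sets. In cAMP cells it was again 1 higher and 0 lower (median 0.11 against -0.024), and in FSH cells 1 higher and 2 lower (median -0.035 against -0.0087).

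The gene that was higher in all 3 was Akap1, and unlike Star it also rose in FSH cells. In basal cells its arrays read 9.26, 9.18 and 9.26 at 10 µM, against 8.09, 8.14 and 8.32 without HPTE (1.05 ± 0.20, adjusted p = 0.00378). In FSH cells they read 9.19, 9.03 and 9.53 against 7.80, 7.24 and 7.51 (1.73 ± 0.20, adjusted p = 5.65e-07). In cAMP cells they read 8.08, 7.94 and 8.57 against 7.45, 7.63 and 6.62 (0.97 ± 0.20, adjusted p = 0.00565), which did not pass when number 3 of the unexposed (0.66, 0.0681) or of the exposed arrays (0.78, 0.087) was left out. The groups did not overlap in any of the 3. Whether these 3 effects differ was tested by interaction, and none of the 3 interactions of Akap1 at 10 µM passed; that of FSH minus basal cells was 0.68 ± 0.28 (adjusted p = 0.326).

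Cyp11a1, which takes over the cholesterol that Star delivers, followed Star under the stimuli without HPTE but not at 10 µM. Over all probe sets 3.88% were higher and 4.18% lower with FSH, and 2.69% and 4.49% with cAMP. Without HPTE Cyp11a1 was higher by 4.97 ± 0.79 with FSH than in basal cells (adjusted p = 6.89e-05) and by 4.15 ± 0.79 with cAMP (adjusted p = 0.000629), and Fdx1 by 3.07 ± 0.63 and 2.04 ± 0.63 (adjusted p = 0.00144 and 0.0479). Leaving out some single basal or cAMP arrays moved the Cyp11a1 difference by more than 1.5-fold from that of all arrays. For FSH it was 5.56 without number 1 and 4.26 without number 3 of the basal arrays. For cAMP it was 4.75 and 3.45 without the same arrays, or 4.88 without number 3 of the cAMP arrays. Fdx1 with FSH was 3.67 without number 2 of the FSH arrays, and with cAMP it did not pass with 5 of the 6 arrays left out in turn, nor without number 2 of both stimulated groups (1.29, 0.244); it did with number 3 of the cAMP arrays left out (2.78). Akap1 went the other way under the stimuli, by -0.66 ± 0.20 with FSH (adjusted p = 0.0328) and -0.95 ± 0.20 with cAMP (0.00177). Without number 2 of both unexposed stimulated groups Cyp11a1 was higher by 5.42 with FSH and by 3.64 with cAMP, and both passed. With FSH, Akap1 did not pass with any of 5 of the 6 arrays left out, number 1 of the FSH arrays being the exception.

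At 10 µM HPTE with FSH, Cyp11a1 arrays read 8.84, 8.06 and 6.62, against 13.02, 11.31 and 12.31 with FSH alone. That is a fall by 4.37 ± 0.79 on the log2 scale (adjusted p = 0.000323), or a change of -3.76 without number 3 of the exposed arrays, in the comparison in which Star differed by -0.27 and 0.32. In cAMP cells Cyp11a1 read 12.01, 11.77 and 11.23 at 10 µM and 11.84, 12.42 and 9.94 without HPTE, and in basal cells 7.56, 7.06 and 6.02 against 8.43, 7.47 and 5.84; the groups overlapped in both. Basal arrays at 10 µM thus overlapped those of FSH alone for Star, while all 3 were far below them for Cyp11a1. Fdx1 was lower with FSH as well (-2.67 ± 0.63, adjusted p = 0.00569); it did not pass with number 1 of the unexposed arrays left out (-2.15, 0.0569), and the change was -3.26 without number 2 of them. The interaction of Cyp11a1 between FSH and cAMP cells at 10 µM was -4.64 ± 1.11 (adjusted p = 0.0225), and that between FSH and basal cells was -4.00 ± 1.11 (adjusted p = 0.0546). The first of these did not pass when number 1 or 3 of the unexposed FSH arrays, number 3 of the FSH arrays at 10 µM, number 1 of the cAMP arrays at 10 µM or number 3 of the unexposed cAMP arrays was left out. Without number 2 of both unexposed stimulated groups, the change of Cyp11a1 with FSH was -4.82 (adjusted p = 0.000336) and the interaction between FSH and cAMP cells -5.60 (0.00635).

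The second list holds relatives of Star, 14 of 15 measured: carriers with a START domain, the lipid-binding fold that gives Star its family name, and Stard3nl, which is related to Stard3 but lacks that domain. At 10 µM HPTE 0 of 14 passed in basal cells (median 0.079 against 0.020 over all probe sets), 1 was higher in FSH cells (median 0.064 against -0.0087) and 1 was higher in cAMP cells (median 0.042 against -0.024). Under the stimuli without HPTE 1 of 14 was lower with each (medians -0.088 with FSH and -0.19 with cAMP, against -0.0078 and 0.039). In that basal comparison only 1.02% of all probe sets passed, so a count of 0 of 14 says little about these relatives. Stard7, Stard8 and Acot12 were also dim, at percentiles 5.0, 7.1 and 8.3 of the mean level.

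Stard13, a START-domain protein of this list, ran opposite to Star under the stimuli. Against basal cells its log2 difference was -3.45 ± 0.50 with FSH (adjusted p = 2.23e-05) and -3.83 ± 0.50 with cAMP (adjusted p = 4.83e-06). At 10 µM HPTE with FSH its arrays read 9.57, 10.20 and 10.70, against 6.49, 6.12 and 7.78 with FSH alone (3.36 ± 0.50, adjusted p = 3.03e-05), and it was higher at 5 µM too (3.07 ± 0.50, adjusted p = 0.00015). In cAMP cells the 10 µM arrays read 6.34, 6.63 and 6.94 against 6.06, 7.32 and 5.85, overlapping, and in basal cells 9.94, 10.16 and 10.97 against 9.65, 10.12 and 10.96. The interaction between FSH and basal cells was 3.25 ± 0.71 (adjusted p = 0.0105). In cAMP cells the member that rose was its relative Dlc1, by 1.10 ± 0.22 (adjusted p = 0.00439).

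The third list holds 31 regulators of the Star gene or its messenger, all measured: the nuclear receptors Nr5a1 (SF-1) and Nr5a2, the repressor Nr0b1 (Dax-1), C/EBP, GATA, CREB and AP-1 factors, the salt-inducible kinases with their CRTC partners, and the messenger-destabilising Zfp36 proteins. At 10 µM HPTE 0 of 31 passed in basal cells, a count near the share of 1.02% over all probe sets. The smallest p there belonged to Foxl2, a granulosa factor known to repress Star (-0.37 ± 0.12, adjusted p = 0.21). The list median was -0.071 against 0.020 over all probe sets. In cAMP cells 0 were higher and 1 lower, the AP-1 factor Jun (-0.87 ± 0.17, adjusted p = 0.00431; list median 0.067 against -0.024). In FSH cells 2 were higher and 8 lower (median -0.14 against -0.0087), against 4.51% higher and 3.95% lower over all probe sets. At 5 µM 2 were higher and 4 lower (median -0.22 against -0.037), against 3.45% and 3.08% over all probe sets. At both doses several of the calls in FSH cells did not pass when 1 array was left out, with adjusted p up to 0.223 at 10 µM and 0.157 at 5 µM.

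Among these, Nr5a1, which binds the Star promoter, had the smallest p in FSH cells. Its arrays read 7.01, 6.70 and 6.60 at 10 µM with FSH, against 9.25, 9.59 and 9.59 with FSH alone (-2.71 ± 0.23, adjusted p = 4.27e-09), and it was already lower at 5 µM (-2.24 ± 0.23, adjusted p = 2.93e-07). At 10 µM the FSH arrays thus overlapped the basal ones, which read 6.52 to 6.87 at 10 µM and 6.80 to 7.16 without HPTE, in the comparison where Star differed by -0.27 and 0.32. In cAMP cells Nr5a1 read 8.55, 8.62 and 8.63 at 10 µM against 9.09, 9.68 and 8.87 without HPTE (-0.62 ± 0.23, adjusted p = 0.256). The interactions of Nr5a1 at 10 µM were -2.52 ± 0.32 between FSH and basal cells (adjusted p = 4.3e-05) and -2.09 ± 0.32 between FSH and cAMP cells (adjusted p = 0.000451).

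Next in FSH cells at 10 µM came the kinase Sik1, which restrains CRTC coactivators (-1.98 ± 0.29, adjusted p = 2.37e-05), Zfp36l2, which marks messengers for decay (1.19 ± 0.18, adjusted p = 2.89e-05), and Foxl2 (-0.75 ± 0.12, adjusted p = 7.84e-05). Under the stimuli without HPTE the list had 6 higher and 2 lower with FSH (median 0.16 against -0.0078) and 6 higher and 3 lower with cAMP (median 0.16 against 0.039). Several of these calls also did not pass when 1 array was left out, with adjusted p up to 0.119 with FSH and 0.194 with cAMP. Nr5a1 was higher by 2.54 ± 0.23 with FSH and 2.28 ± 0.23 with cAMP (adjusted p = 1.85e-08 and 9.08e-08), and Sik1 by 2.35 ± 0.29 and 2.17 ± 0.29 (adjusted p = 2.21e-06 and 6.31e-06). Cebpa, a C/EBP factor, was higher by 2.78 ± 0.47 and 2.65 ± 0.47 (adjusted p = 0.000158 and 0.000311), and Zfp36l2 lower, at -0.82 ± 0.18 and -0.78 ± 0.18 (adjusted p = 0.00223 and 0.00407). In FSH cells at 10 µM 6 of the 9 granulosa markers also fell, and the 9 summed to 28021 to 30460 against 39911 to 52828 with FSH alone; their part in these changes was not tested.

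**Figure D4:**
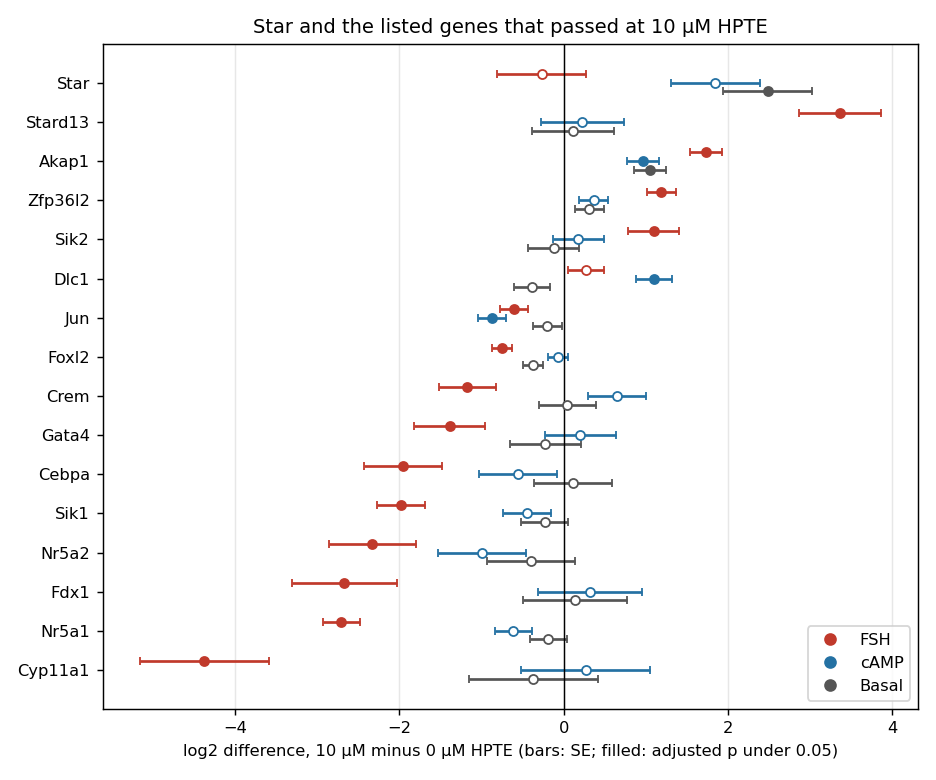
Log2 difference of 10 µM from 0 µM HPTE in FSH, cAMP and basal cells, with the SE of the fit, for Star (1368406_at) and each gene of the 3 lists that passed in at least 1 of the 3 comparisons (filled points: adjusted p under 0.05). Nr5a1 and Cyp11a1 lie at -2.71 and -4.37 in FSH cells, where Star is at -0.27, and Akap1 is to the right of 0 in all 3.

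The genes whose 12 group means were most like those of Star were looked for among 1805 genes with group means spanning at least 1 log2 unit and a mean at or above the median probe set. The 5 closest were Alg2, an enzyme that builds the sugar chains for protein glycosylation (r = 0.977), Prdx3, a peroxidase of the mitochondrial matrix (0.977), Bcl2l11, the pro-apoptotic protein Bim (0.962), Folr1, a folate receptor (0.958), and Mt2A, a metallothionein (0.948). The 3 most opposed were Lratd1 (-0.959), Nid2, a basement membrane protein (-0.947), and Pimreg, a gene of dividing cells (-0.928). Over the 36 arrays, centred by title number, the correlations were between 0.879 and 0.926 for the first 5 and between -0.935 and -0.839 for the 3. With the second Star probe set the group-mean correlations of the 5 were 0.940 to 0.976. Without number 2 of both unexposed stimulated groups, those with Star were 0.953, 0.954, 0.919, 0.956 and 0.940 for the 5, in the order named. For the 3 they were then -0.949, -0.886 and -0.924, so the order among the 5 changed, with Folr1 the highest of them. These figures describe the same arrays that chose the genes, and genes and groups share the libraries.

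Like Star, these 5 had their highest group mean in cAMP cells at 10 µM, and their range was smaller. Folr1 ran from 6.46 to 8.86 and Mt2A from 11.06 to 13.47, against 7.91 to 12.32 for Star. In the comparisons of 10 µM with 0 µM HPTE, none of the 5 passed, and Lratd1 was the 1 of the 8 that did, in cAMP cells (-1.38 ± 0.32, adjusted p = 0.0166).

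**Figure D5:**
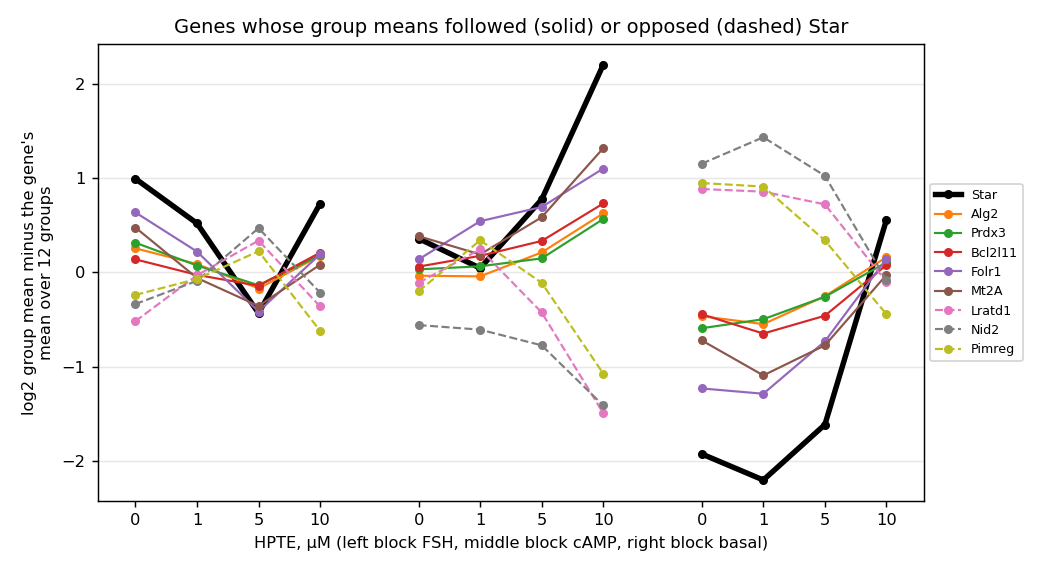
Group means of Star and the 8 named genes by HPTE dose in µM for FSH, cAMP and basal cells from left to right, each as the log2 difference from the gene's own mean over the 12 groups (solid, correlated; dashed, opposed). Star moves over 7.91 to 12.32 in log2 intensity, more than Folr1 with 6.46 to 8.86.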

How the data were processed

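The deposited values are linear probe-set intensities made by the authors with RMA, per the submitters' processing notes; the series description names ArrayAssist as the analysis software. RMA shares strength over all arrays, so arrays are not fully independent in it. No columns other than the 36 arrays were present. The log2 of the deposited intensity was taken, and limma 3.58.1 in R 4.3.3 fitted the 12 group means over all 31042 probe sets, with 24 residual degrees of freedom. P-values are two-sided and adjusted by Benjamini-Hochberg over all probe sets within each comparison; below 0.05 is called passing. Of the probe sets, 20826 carry 1 gene symbol, 436 several and 9780 none; 20758 symbols were updated through gene identifiers to RefSeq. The number of arrays limits the precision.

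The choice of Star, the lists and the markers was made with earlier results of these data known, and no list was tested. Genes named in a list are at most 4 a comparison, those with the smallest p; the like genes are the 5 highest and 3 lowest correlations. Genes of the lists without a matching probe set were not analysed here.

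The title numbers were checked for pairing: residuals of arrays with the same number correlated above 0.1 in 189 of 198 pairs of arrays (median 0.51). Among the compared pairs the exception was FSH against cAMP without HPTE, so the numbers appear to pair the arrays elsewhere, from the data and not from the labels. The main fit left this pairing out, because the labels do not say what the numbers stand for. A fit that takes the number as a block is given where it changes a call of Star. For the list genes and markers only the fit without a block is given. Alternatives were the block, quantile normalization, a filter on dim probe sets, an offset of 16, numbers 1 and 2 alone, only the compared groups, a trended robust prior, leaving out each array, and leaving out number 2 of both unexposed stimulated groups. The dose steps, the interactions at 5 µM and the last alternative with a block were added after the data were seen.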

Additional observations from a re-analysis of the deposited data

Results flagged for a closer look

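Both results below are differences between stimuli in the effect of HPTE that passed the interaction test on 1387174_a_at; with 3 arrays a group, single arrays were not tested as outliers. On this probe set the effect of 10 µM HPTE was lower in FSH cells than in basal cells. The interaction was -3.28 (adjusted p = 0.00255), against -2.75 on 1368406_at, which did not pass (adjusted p = 0.0549). The effect of 5 µM HPTE, tested as an addition, was lower in FSH cells than in cAMP cells. That interaction was -2.50 (adjusted p = 0.0254) and passed in 6 of 12 fits with 1 array left out. On 1368406_at it was -1.84 and did not pass (adjusted p = 0.334).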

How the results depend on the processing

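With 3 arrays a group and a pooled SD of 0.71 and 0.56 on the log2 scale, the 95% interval of a difference reaches 1.11 and 0.89 to either side of it, before any adjustment over probe sets. The number of probe sets passing moved by over 1.5 times in 32 of 36 comparisons with the block, 20 with only the compared groups, 17 with numbers 1 and 2 alone, 11 of 18 without number 2 of both unexposed stimulated groups and 17 of 18 with the block added to that, against 2 with the filter on dim probe sets, 1 each with the offset and the trended prior and 0 with quantile normalization. The causes were not tested. Each number occurs once in every group, so with all arrays the block changes only the error and p of a difference and leaves its size as it was.

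On 1368406_at, the block brought past the threshold FSH at 5 µM (-1.43, and -1.67 without number 2 of both unexposed stimulated groups), cAMP at 10 µM (1.85 and 2.07), cAMP over basal at 10 µM (1.65), FSH against cAMP at 5 µM (-1.21) and 10 µM (-1.48), and at 10 µM the interactions of FSH with basal (-2.75 and -2.99) and with cAMP cells (-2.11 and -2.57). The filter and the fit of only the compared groups did so for cAMP over basal at 10 µM (1.65) and the interaction of FSH with basal cells (-2.75), the fit of only the compared groups also for FSH against cAMP at 10 µM (-1.48), and leaving out number 2 of both groups for that interaction (-3.02). Basal cells at 10 µM did not pass with numbers 1 and 2 alone (2.41), nor FSH over basal at 1 µM with only the compared groups (2.73).

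On 1387174_a_at, FSH at 5 µM passed with the block (-1.39), quantile normalization (-1.37), the filter (-1.39), without number 2 of both groups (-1.62) and with both of these (-1.41), and the interaction of FSH with cAMP cells at 10 µM with the block (-2.25), the filter (-2.25) and the block without those arrays (-2.22). With numbers 1 and 2 alone, calls were lost for cAMP at 10 µM (2.30), FSH over basal at 1 µM (2.22; 2.48 with only the compared groups), cAMP over basal at 10 µM (1.87), FSH against cAMP at 5 µM (-2.05) and 10 µM (-1.93) and the interaction of FSH with basal cells at 10 µM (-3.47).

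Signs turned for values near 0. On 1368406_at these were the interaction of cAMP with basal cells at 1 µM (0.15 without number 2 of both groups, 0.18 with the block too) and at 5 µM (-0.0011 with numbers 1 and 2). On 1387174_a_at they were, with numbers 1 and 2, FSH at 10 µM (-0.12) and FSH over basal at 10 µM (-0.055), then cAMP at 1 µM (-0.039 with quantile normalization, -0.23 without number 2 of both groups, -0.023 with the block too) and the interaction of cAMP with basal cells at 1 µM (-0.0092 and -0.20 under the first of these 2).

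Leaving out single arrays gave these ranges on 1368406_at: basal at 10 µM 2.26 to 2.69, FSH at 1 µM -1.14 to 0.050 and at 10 µM -0.53 to 0.26, cAMP at 1 µM -0.84 to 0.17 and at 5 µM -0.11 to 0.79. FSH over basal was 2.06 to 3.22 at 1 µM and -0.019 to 0.38 at 10 µM, cAMP over basal 1.95 to 2.81 at 0 µM and 1.85 to 2.74 at 1 µM, and FSH against cAMP at 1 µM -0.19 to 0.97. The interaction of FSH with basal cells was -3.02 to -2.23 at 10 µM and -0.86 to 0.33 at 1 µM, that of FSH with cAMP cells -0.82 to 0.37 at 1 µM, and that of cAMP with basal cells -0.56 to 0.45 at 1 µM and -0.42 to 0.48 at 5 µM. On 1387174_a_at the ranges were -0.17 to 0.12 for basal at 1 µM, -1.62 to -1.11 and -0.064 to 0.60 for FSH at 5 and 10 µM, -0.23 to 0.34 for cAMP at 1 µM, -0.33 to 0.33 and 1.5 to 2.07 for FSH and cAMP over basal at 10 µM, -0.90 to 0.40 and -2.12 to -1.54 for FSH against cAMP at 1 and 10 µM, -2.63 to -1.97 for the interaction of FSH with cAMP cells at 10 µM and -0.20 to 0.36 for that of cAMP with basal cells at 1 µM.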
